A study of Mus musculus with 12 samples.

Results

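Synaptic vesicle and transmitter release genes were followed in 2 classes of mouse retinal ganglion cell, the output neurons of the retina, after optic nerve crush or sham surgery. The set holds 48 gene names taken as a fixed list, and a row of the deposited table belonged to it when its gene name was on the list. This gave 49 rows of 38887, because Pclo is listed for a protein-coding gene and for a long non-coding row beside it. Of these rows, 47 passed a filter of at least 1 RPKM (reads per kilobase of gene, scaled to the library's total, so that levels of different genes can be set side by side) in at least 3 of the 12 libraries and were tested. Slc17a8 and Doc2b did not pass and reached at most 0.0426 and 0.260 RPKM.

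There were 4 groups of 3 libraries, and each library held RNA of 30 hand-picked fluorescent cells, 10 from each of 3 animals. Opn4 cells came from Opn4CreERT/+;R26-tdTomatof/f mice, in which tamoxifen lets Cre, driven from the gene of the light pigment melanopsin, switch on a red reporter in intrinsically photosensitive ganglion cells. HB9 cells came from HB9:GFP mice, whose green transgene marks ON-OFF direction-selective ganglion cells. Both lines received tamoxifen at 0.124 mg per g body weight on 5 days from postnatal day 21, had the optic nerve crushed or sham surgery at postnatal day 42, and were sampled 3 days later, so that the groups were Opn4 crush, Opn4 sham, HB9 crush and HB9 sham. Strain background was not given in the sources used here. Cre and the red reporter belong to the Opn4 line alone, so a difference between classes cannot be told apart from a difference between lines. The labels do not say whether an animal gave cells to more than 1 library, and p-values measure the spread between these libraries.

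Release of transmitter runs as a cycle. Transporters load the vesicle, synapsins tether it in the reserve pool, RAB3 proteins hold it near the membrane, and active zone scaffolds and MUNC13 prime it. The SNAREs of vesicle (synaptobrevin) and membrane (syntaxin, SNAP-25) zip together and fuse vesicle and cell membrane when synaptotagmin binds calcium. Complexin acts on the assembled SNAREs. Dynamin, amphiphysin, endophilin and synaptojanin then recover the vesicle membrane. In ganglion cells the transmitter is glutamate and the release sites lie at the far end of the optic nerve axon, in the brain. The RNA measured here came from dissociated retinal cells.

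The libraries had been scaled to totals of 15104446 to 28195798 reads. Opn4 libraries held 2694 to 3144 RPKM after crush and 3050.5 to 4406 RPKM after sham of 12 summed markers of photosensitive ganglion cells, against 304 to 361 RPKM and 45.0 to 83.4 RPKM in HB9 libraries. The HB9 gene itself, Mnx1, was at 1.13 to 3.06 RPKM in HB9 cells after crush, against 20.9 to 41.7 RPKM after sham and at most 0.144 RPKM in Opn4 cells. Opn4 sham 1 and Opn4 crush 1 stood apart on principal component 3 (83.8 and -61.9, the other 10 libraries between -33.2 and 34.3). Counts are therefore also given without these 2 libraries where they differ. All 15 rod photoreceptor markers averaged at least 1 RPKM in each group, and they summed to 1166 to 3389.8 RPKM in Opn4 cells after crush and 796 to 2113 RPKM after sham, against 619 to 1017 RPKM and 308 to 1018 RPKM in HB9 cells, with 2 of the 15 called higher in Opn4 cells after sham and 2 after crush. Rod RNA thus moved with class. A fit with the average rod gene level (log2) as a covariate is given where it ended a call, and the part of rod RNA in the class differences was not tested otherwise.

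The release genes covered the whole range from near absence to more than 1000 RPKM. Snap25 and Sncg held ranks 1 and 2 within the set in every group, with Sncg first in Opn4 cells and Snap25 first in HB9 cells. Cplx1 was at rank 19 after crush and 21 after sham in Opn4 cells, against rank 3 in both HB9 groups. The set as a whole made up 1.24% to 1.28% of all RPKM in Opn4 cells after crush and 1.15% to 1.23% after sham, against 1.22% to 1.24% in HB9 cells after crush and 1.48% to 1.71% after sham. The 3 HB9 sham libraries were thus above the other 9.

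**Figure D1:**
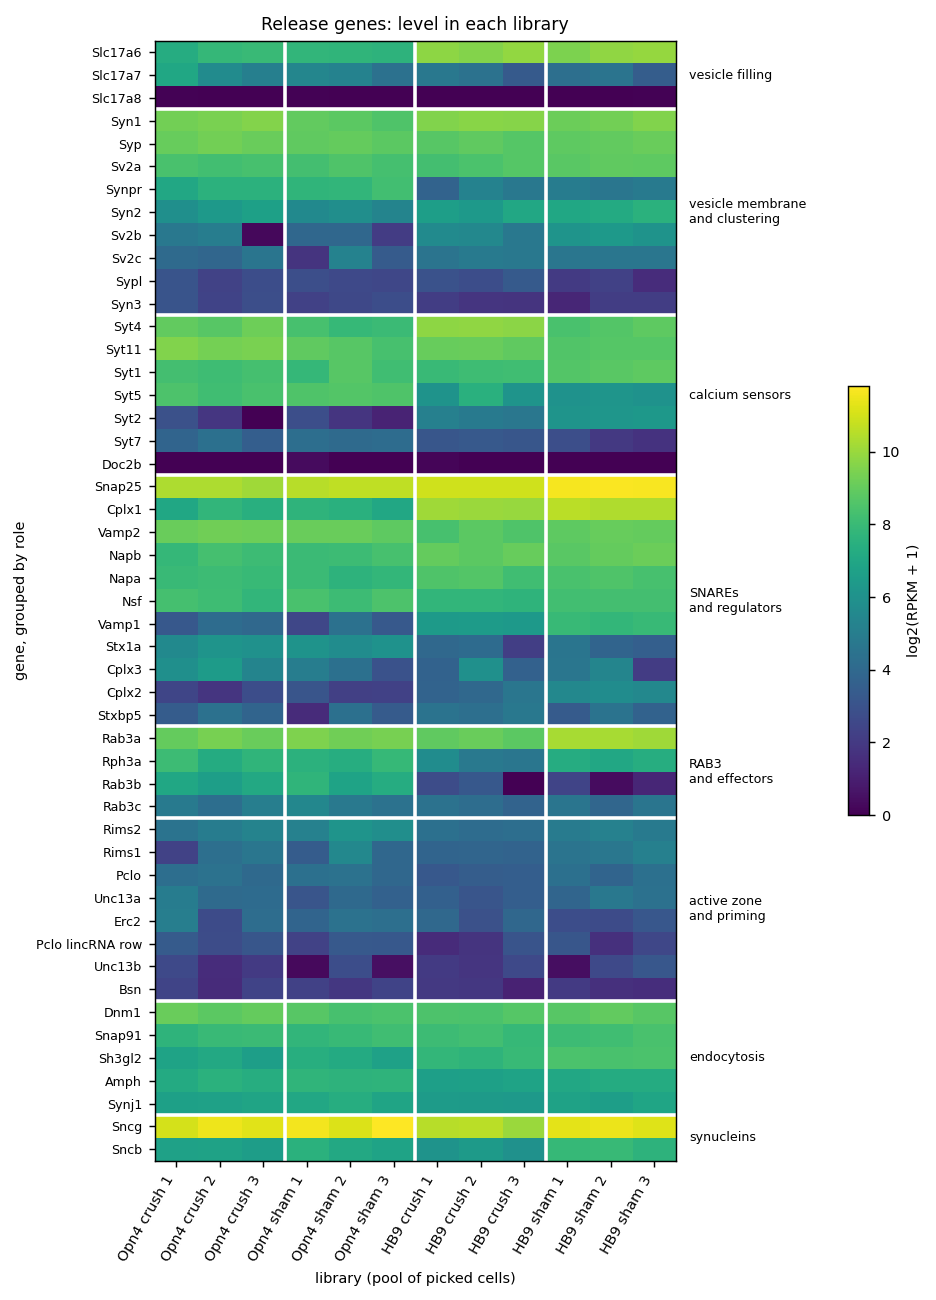
Level of each of the 49 rows in each of the 12 libraries, as colour on the scale log2(RPKM + 1), with genes grouped by role and libraries by group. Slc17a8 and Doc2b are dark throughout, Snap25 and Sncg are bright throughout, and Vamp1, Syt2, Cplx1, Rab3b, Synpr and Syt5 change between the 6 Opn4 libraries on the left and the 6 HB9 libraries on the right.

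Between classes the set split into genes that were higher and genes that were lower in Opn4 cells. All comparisons used limma on log2(RPKM + 1) with 1 model over the 12 libraries, a gene was called at an adjusted p (Benjamini-Hochberg over 18269 genes) under 0.05, and a log2 difference is given ± its standard error with n = 3 libraries per group. After sham, 6 of 47 release genes were higher and 13 lower in Opn4 than in HB9 cells (12.8% and 27.7%), where 5.82% and 5.93% of all genes tested were called (11.8% in either direction). After crush, 9 were higher and 9 lower (19.1% each), where 5.12% and 7.6% of all genes were called (12.7% in either direction). The median log2 difference of the set was -0.27 after sham, when that of all genes was 0.01, and 0.36 after crush, when that of all genes was -0.12. The 2 class comparisons set apart different libraries, but each gene's spread was estimated from all 12 libraries for both, so the calls are not independent. In both, 5 genes were higher, which is 5 of 6 calls after sham and 5 of 9 after crush. Likewise 8 genes were lower in both, 8 of 13 and 8 of 9. With the rod covariate 3 were higher after sham, and without the 2 libraries that stood apart 14 were lower after sham. The rod covariate ended calls in both directions. After sham these were the calls of Amph, Stx1a and Syt7 (higher) and of Napa, Napb, Sv2a and Syn1 (lower). After crush they were those of Slc17a7, Stx1a and Vamp2 (higher) and of Cplx2, Napb and Syt4 (lower). The libraries of the classes did not overlap for 11 genes with Opn4 cells higher and 16 with Opn4 cells lower after sham (23.4% and 34%, where all genes gave 15.5% and 15.2%), and for 19 and 10 after crush (40.4% and 21.3%, where all genes gave 12.8% and 17.6%).

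After crush few release genes were called in Opn4 cells, and several were called lower in HB9 cells. In Opn4 cells 2 of 47 release genes rose and 0 fell (limma, 8 at an unadjusted p under 0.05), where 0.69% and 0.421% of all genes were called (1.11% in either direction), and the medians of the set and of all genes were both -0.02. Crush and sham libraries of Opn4 cells did not overlap for 9 release genes with crush higher and 5 with crush lower (19.1% and 10.6%; all genes 7.38% and 7.33%). The spread of members within a group was wider in Opn4 cells (median SD of log2 values 0.26 after sham and 0.29 after crush) than in HB9 cells (0.17 and 0.21). A missed call in Opn4 cells does not show that a gene was unchanged there. With limma voom on reads recovered from the RPKM steps 1 fell, Snap25. The count of 2 came to 0 without Opn4 sham 3, without Opn4 crush 1, without Opn4 crush 3 and in a fit on the Opn4 libraries alone, and to 1 without Opn4 sham 2, without HB9 sham 2, without HB9 crush 1 and with no filter on low values. In HB9 cells 1 rose and 7 fell (2.13% and 14.9%), where 3.84% and 2.57% of all genes were called (6.42% in either direction). The median log2 change was -0.33 for the set and 0.11 for all genes. The crush and sham libraries of HB9 cells did not overlap, with crush lower, for 22 release genes (46.8%; 12.6% of all genes), and with crush higher for 5 (10.6%; 19% of all genes). The count of 7 came to 10 without the 2 libraries that stood apart, 12 with median-of-ratios scaling and with voom, 13 in a fit on the HB9 libraries alone and 17 with weights per library. The count of 1 that rose came to 2 with voom and 4 with weights per library. In pooled cells a lower value can be less RNA per cell or fewer cells with the RNA, and these cannot be told apart. Beside these changes, the Muller glia and astrocyte markers summed to 796 to 2206 RPKM in HB9 cells after crush, against 419 to 429.6 RPKM after sham, most of it Clu after crush, with Aqp4 and Sox9 at 0 in both and Gfap at most at 0.294 RPKM. The microglia markers summed to 98.4 to 130.4 RPKM after crush, against 3.17 to 4.20 RPKM after sham, nearly all of it Cd68 after crush, with 8 of 12 at 0 in all 3 crush libraries. The 14 general ganglion cell markers, which include Slc17a6 and Sncg, summed to 5946 to 7144 RPKM after crush, against 9592 to 10742 RPKM after sham. Markers of direction-selective ganglion cells summed to 5491 to 11185 RPKM after crush, against 11229 to 12864 RPKM after sham. Bipolar cell markers summed to 85.8 to 163 RPKM after crush, against 211 to 300 RPKM after sham. Amacrine cell markers summed to 103 to 497 RPKM after crush, highest in HB9 crush 2, against 82.4 to 164 RPKM after sham. Marker sums of Opn4 cells moved as well. Muller glia and astrocyte markers summed to 815 to 1034 RPKM after crush, against 566 to 649 RPKM after sham, and amacrine markers to 318 to 418 RPKM, against 213 to 308 RPKM. General ganglion cell markers summed to 5474 to 6556 RPKM after crush, against 6783 to 7329 RPKM after sham. For bipolar cell and microglia markers, crush and sham sums of Opn4 cells overlapped. The part of these cell types in the changes was not tested in either class.

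Upstream sequences are shown for 5 members, because Vamp1, Sncb and Sncg were among the genes that fell in HB9 cells, and Rab3b and Stx1a among those higher in Opn4 cells both after sham and after crush. Each is the 250 bases before a RefSeq gene start, which for Vamp1, Rab3b and Sncg lies inside the gene span of the deposited table (build GRCm38.p6, read 5′ to 3′ on the gene's strand). Capitals mark matches to the GC box GGGCGG on either strand and, among these 5 in Sncg alone, to the T-box half-site AGGTGT.
Vamp1, chr6:125215331-125215580, plus strand: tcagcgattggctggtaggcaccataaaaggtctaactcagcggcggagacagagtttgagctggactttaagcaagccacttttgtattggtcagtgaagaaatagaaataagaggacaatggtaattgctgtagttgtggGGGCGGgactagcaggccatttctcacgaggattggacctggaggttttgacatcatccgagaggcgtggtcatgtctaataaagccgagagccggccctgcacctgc
Sncb, chr13:54766596-54766845, minus strand: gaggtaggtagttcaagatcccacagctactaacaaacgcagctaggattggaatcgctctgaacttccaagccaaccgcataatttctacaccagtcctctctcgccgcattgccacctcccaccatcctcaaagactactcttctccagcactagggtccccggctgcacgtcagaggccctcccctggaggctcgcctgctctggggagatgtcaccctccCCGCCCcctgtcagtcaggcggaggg
Sncg, chr14:34374670-34374919, minus strand: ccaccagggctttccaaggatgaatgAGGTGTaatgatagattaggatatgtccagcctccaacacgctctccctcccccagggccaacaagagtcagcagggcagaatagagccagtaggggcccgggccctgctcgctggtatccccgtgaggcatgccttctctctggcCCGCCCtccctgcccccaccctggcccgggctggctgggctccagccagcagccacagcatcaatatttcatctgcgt
Rab3b, chr4:108878820-108879069, plus strand: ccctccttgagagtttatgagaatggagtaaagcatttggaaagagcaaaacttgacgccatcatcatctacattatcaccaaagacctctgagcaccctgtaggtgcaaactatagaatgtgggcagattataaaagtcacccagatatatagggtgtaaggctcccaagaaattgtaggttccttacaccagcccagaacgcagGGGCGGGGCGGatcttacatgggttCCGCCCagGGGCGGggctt
Stx1a, chr5:135023232-135023481, plus strand: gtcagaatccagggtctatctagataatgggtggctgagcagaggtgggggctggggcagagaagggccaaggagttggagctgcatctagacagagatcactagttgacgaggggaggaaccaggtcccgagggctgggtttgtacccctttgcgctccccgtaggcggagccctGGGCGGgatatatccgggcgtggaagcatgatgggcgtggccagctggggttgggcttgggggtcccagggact
Each window holds at least 1 GC box, and Rab3b holds 4, of which 2 overlap. Of the 48 names, 40 had a window in the RefSeq table, and 31 of their 54 windows (57.4%) held a GC box, against 32.7% of all 32851 windows of this length. The cAMP response element TGACGTCA was in 2 member windows (3.70%; 1.55% of all), those of Sh3gl2 and Syn1, and the AP-1 site TGANTCA in 4 (7.41%; 6.75%). AGGTGT was in 8 (14.8%; 11.8%), the homeodomain core TAATTA in 2 (3.70%; 4.84%) and the E-box CACGTG in 5 (9.26%; 6.02%), each searched on both strands. A match is a description of letters in the window.

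Among the genes of vesicle filling, the transporter Slc17a6 (VGLUT2), which loads glutamate in ganglion cells, was about 4 times lower in Opn4 cells whether or not the nerve was crushed. Slc17a6 (Ensembl ENSMUSG00000030500, chr7:51621830-51671125 in the mm10 coordinates of the table) was at 155, 231 and 258 RPKM in Opn4 cells after crush and 216, 208 and 199 RPKM after sham, against 896, 769 and 945 RPKM in HB9 cells after crush and 703, 918 and 964 RPKM after sham. No Opn4 library reached the lowest HB9 library. The class difference was -2.03 ± 0.19, adjusted p = 1.84e-05, after sham and -2.04 ± 0.19, adjusted p = 2.41e-05, after crush. Within each class crush and sham overlapped, with log2 changes of 0.02 ± 0.19, adjusted p = 0.989, in Opn4 cells and 0.02 ± 0.19, adjusted p = 0.977, in HB9 cells. Slc17a7 (VGLUT1), the transporter of photoreceptors and bipolar cells in the retina, was at 132, 50.0 and 32.9 RPKM in Opn4 cells after crush and 41.6, 36.0 and 20.2 RPKM after sham, against 25.6, 20.6 and 9.02 RPKM in HB9 cells after crush and 18.7, 22.1 and 10.2 RPKM after sham. Opn4 crush 1 was the highest library and also held the most rod RNA (3389.8 RPKM summed). Slc17a7 was called higher in Opn4 cells after crush (1.77 ± 0.52, adjusted p = 0.04), and this call held in 8 of 23 alternatives. It ended, among others, with the rod covariate (adjusted p = 0.566), on leaving out both libraries that stood apart (adjusted p = 0.123) and without any 1 of Opn4 sham 2, Opn4 crush 1, Opn4 crush 2, HB9 sham 1, HB9 sham 2, HB9 crush 1, HB9 crush 2 and HB9 crush 3 (adjusted p = 0.0506 to 0.161). Slc17a8 (VGLUT3), known in the retina from a class of amacrine cells, stayed at or under 0.0426 RPKM.

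The calcium sensors split, with some higher in Opn4 cells and some lower. Synaptotagmin 2, a fast sensor of release, was far lower in Opn4 cells. Syt2 was at 6.53, 2.67 and 0.0275 RPKM in Opn4 cells after crush and 6.24, 2.54 and 1.26 RPKM after sham, against 33.7, 27.7 and 24.7 RPKM in HB9 cells after crush and 68.8, 72.3 and 76.4 RPKM after sham. The class difference was -4.25 ± 0.61, adjusted p = 0.00065, after sham and -3.27 ± 0.61, adjusted p = 0.00402, after crush. In HB9 cells all 3 crush libraries lay under all 3 sham libraries, and the change was -1.32 ± 0.61, adjusted p = 0.271, which missed the threshold; it passed in a fit on the HB9 libraries alone (adjusted p = 0.00533). Syt1, the main fast sensor of forebrain synapses, was at 308, 279 and 317 RPKM in Opn4 cells after crush and 232, 420.1 and 289.8 RPKM after sham, against 256, 281 and 289.7 RPKM in HB9 cells after crush and 397, 440.4 and 464 RPKM after sham. It did not reach the threshold between classes after sham (-0.51 ± 0.19, adjusted p = 0.104). In HB9 cells the crush libraries were all lower than the sham libraries, at -0.65 ± 0.19, adjusted p = 0.0563, and 8 of 23 alternatives passed.

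Syt5, a synaptotagmin that binds calcium, ran the other way. Its level was 368, 288 and 345 RPKM in Opn4 cells after crush and 378, 395 and 371 RPKM after sham, against 65.0, 177 and 68.9 RPKM in HB9 cells after crush and 63.9, 70.4 and 63.7 RPKM after sham. HB9 crush 2 stood above the other 5 HB9 libraries, and it also held the highest amacrine marker sum of the HB9 libraries (497 RPKM). Opn4 cells were higher after sham (2.51 ± 0.29, adjusted p = 0.00013) and after crush (1.83 ± 0.29, adjusted p = 0.00148), with no overlap of libraries. Syt7, a slow sensor of high calcium affinity, was at 12.8, 19.7 and 10.7 RPKM in Opn4 cells after crush and 18.1, 16.0 and 17.2 RPKM after sham, against 7.85, 8.75 and 8.03 RPKM in HB9 cells after crush and 6.15, 2.88 and 2.35 RPKM after sham. It was higher in Opn4 cells after sham (2.00 ± 0.38, adjusted p = 0.0039; adjusted p = 0.113 with the rod covariate), and after crush it missed the threshold at 0.70 ± 0.38, adjusted p = 0.262, though the libraries did not overlap.

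Syt4, in both classes, and Syt11, in Opn4 cells, were the members called higher after crush in the fit described above. Both are synaptotagmins that bind calcium weakly or not at all, and Syt4 is known as a protein of dense-core and other transport vesicles. Syt4 was at 496, 422 and 589 RPKM in Opn4 cells after crush and 326, 236 and 263 RPKM after sham, against 876, 905 and 872 RPKM in HB9 cells after crush and 338, 397 and 468 RPKM after sham. Crush libraries lay above sham libraries in both classes, with log2 changes of 0.87 ± 0.17, adjusted p = 0.0257, in Opn4 cells and 1.15 ± 0.17, adjusted p = 0.00112, in HB9 cells. The difference of these changes was -0.28 ± 0.24, adjusted p = 0.677. After crush Syt4 was lower in Opn4 than in HB9 cells (-0.83 ± 0.17, adjusted p = 0.00639; adjusted p = 0.0969 with the rod covariate). Syt11 was at 761, 636 and 678 RPKM in Opn4 cells after crush and 475, 427 and 334 RPKM after sham, against 536, 547 and 481 RPKM in HB9 cells after crush and 386, 412 and 415 RPKM after sham. It rose in Opn4 cells (0.76 ± 0.14, adjusted p = 0.0247). In HB9 cells all crush libraries also lay above all sham libraries, but the change of 0.36 ± 0.14, adjusted p = 0.175, missed the threshold. In a fit on the Opn4 libraries alone neither passed (adjusted p = 0.256 for Syt4 and adjusted p = 0.281 for Syt11). Syt4 was also lost with no filter on low values (adjusted p = 0.0613) and without any 1 of Opn4 sham 2, Opn4 sham 3, Opn4 crush 1, Opn4 crush 3, HB9 sham 2 and HB9 crush 1 (adjusted p = 0.0502 to 0.0785), Syt11 without any 1 of Opn4 sham 3, Opn4 crush 1 and Opn4 crush 3 (adjusted p = 0.053 to 0.0677). Where strand was not used in counting, reads of Syt4 cannot be told from those of the antisense gene Gm26658, which shares 566 exon bases with it and was at 110 to 146 RPKM in Opn4 cells after crush and 57.7 to 77.5 RPKM after sham, against 235 to 245 RPKM in HB9 cells after crush and 90.0 to 127 RPKM after sham.

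Of the genes that cluster vesicles or sit in their membrane, Synpr was called higher in Opn4 cells after sham and after crush, and Syn1, Syn2 and Sv2a lower after sham. Synaptoporin (Synpr), a relative of synaptophysin, was at 133, 188 and 189 RPKM in Opn4 cells after crush and 209.9, 218 and 298 RPKM after sham, against 12.5, 36.2 and 25.3 RPKM in HB9 cells after crush and 30.0, 23.8 and 27.5 RPKM after sham. It was higher in Opn4 cells after sham (3.10 ± 0.32, adjusted p = 4.1e-05) and after crush (2.84 ± 0.32, adjusted p = 0.000107), and the lowest Opn4 library was more than 3 times the highest HB9 library. Synaptophysin itself (Syp), the abundant vesicle protein used as a marker of synapses, was at 526, 623 and 545 RPKM in Opn4 cells after crush and 490.2, 521 and 446 RPKM after sham, against 429, 485 and 409 RPKM in HB9 cells after crush and 468, 501 and 543 RPKM after sham. All 12 libraries lay between 409 and 623 RPKM, with no call in any comparison. Gm14703, antisense to Syp over 875 exon bases, was at 347 to 527 RPKM, and the same limit of strand applies. Synapsin 2 (Syn2), which tethers vesicles in the reserve pool, was at 58.7, 81.3 and 104 RPKM in Opn4 cells after crush and 47.0, 56.0 and 39.7 RPKM after sham, against 96.1, 82.4 and 134 RPKM in HB9 cells after crush and 128, 149 and 185 RPKM after sham. It was lower in Opn4 cells after sham (-1.67 ± 0.25, adjusted p = 0.000902), and after crush the libraries overlapped (-0.36 ± 0.25, adjusted p = 0.402). The change of this difference with crush was 1.31 ± 0.36, adjusted p = 0.127. Synapsin 1 (Syn1) was at 620.3, 684 and 777 RPKM in Opn4 cells after crush and 497, 459 and 379 RPKM after sham, against 761, 834 and 815 RPKM in HB9 cells after crush and 565, 626 and 750.5 RPKM after sham. The vesicle glycoprotein Sv2a was at 342, 301 and 334 RPKM in Opn4 cells after crush and 313, 373 and 321 RPKM after sham, against 310.1, 356 and 411 RPKM in HB9 cells after crush and 432, 478 and 473 RPKM after sham. Both were called lower in Opn4 cells after sham, at -0.54 ± 0.15, adjusted p = 0.0304, for Syn1 and -0.46 ± 0.14, adjusted p = 0.0489, for Sv2a, close to the threshold. The Syn1 call held in 15 of 23 alternatives and ended, among others, with the rod covariate (adjusted p = 0.312) and without any 1 of Opn4 sham 2, Opn4 sham 3, HB9 sham 2 and HB9 sham 3 (adjusted p = 0.0515 to 0.132). The Sv2a call held in 7 of 23 alternatives. It ended with the rod covariate (adjusted p = 0.366), among others, and without any 1 of Opn4 sham 1, Opn4 sham 3, Opn4 crush 1, Opn4 crush 2, Opn4 crush 3, HB9 sham 1, HB9 sham 2, HB9 sham 3, HB9 crush 1 and HB9 crush 2 (adjusted p = 0.0501 to 0.155). In Opn4 cells all crush libraries of Syn1 were above the sham libraries, at 0.64 ± 0.15, adjusted p = 0.057, which missed the threshold.

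Of the SNARE genes, the 2 synaptobrevins gave the widest contrast. Vamp1 (ENSMUSG00000030337, chr6:125215551-125244543, plus strand), the vesicle SNARE known from spinal cord and brainstem neurons, was at 8.43, 17.2 and 15.0 RPKM in Opn4 cells after crush and 4.76, 20.2 and 8.89 RPKM after sham, against 84.0, 88.4 and 80.3 RPKM in HB9 cells after crush and 247, 224 and 246 RPKM after sham. The groups formed 3 steps without overlap: HB9 sham highest, HB9 crush below it, and the 6 Opn4 libraries lowest. The class difference was -4.49 ± 0.39, adjusted p = 1.19e-05, after sham and -2.60 ± 0.39, adjusted p = 0.000892, after crush. Vamp1 fell after crush in HB9 cells (-1.49 ± 0.39, adjusted p = 0.0377) and changed by 0.39 ± 0.39, adjusted p = 0.684, in Opn4 cells, with a difference of the changes of 1.89 ± 0.55, adjusted p = 0.158. The HB9 call was lost without any 1 of HB9 sham 1, HB9 sham 2, HB9 sham 3, HB9 crush 1, HB9 crush 2 and HB9 crush 3 (adjusted p = 0.0936 to 0.125), with the rod covariate (adjusted p = 0.0744), with no filter on low values (adjusted p = 0.087) and on adding 0.1 in place of 1 before taking logs (adjusted p = 0.0639). Vamp2, the synaptobrevin of most brain synapses, was at 556, 607 and 589 RPKM in Opn4 cells after crush and 549.9, 545 and 468 RPKM after sham, against 325, 449 and 379.7 RPKM in HB9 cells after crush and 465, 532 and 521 RPKM after sham. After sham the classes overlapped (0.04 ± 0.14, adjusted p = 0.901). After crush Opn4 cells were higher (0.61 ± 0.14, adjusted p = 0.0122), a call that ended with the rod covariate (adjusted p = 0.0678) and without HB9 crush 1 (adjusted p = 0.063). The crush libraries lay above sham in Opn4 cells (0.17 ± 0.14, adjusted p = 0.625) and under sham in HB9 cells (-0.40 ± 0.14, adjusted p = 0.118), and neither change passed.

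Snap25, the membrane SNARE of nerve terminals, was lower in Opn4 cells and fell after crush in HB9 cells. It was at 1289, 1293 and 1119 RPKM in Opn4 cells after crush and 1477, 1619.7 and 1622 RPKM after sham, against 1964, 1999.9 and 1963 RPKM in HB9 cells after crush and 3146, 3395 and 3329 RPKM after sham. The 4 groups did not overlap, in the order Opn4 crush, Opn4 sham, HB9 crush, HB9 sham from low to high. The class difference was -1.06 ± 0.10, adjusted p = 2.2e-05, after sham and -0.68 ± 0.10, adjusted p = 0.000781, after crush. The crush effect was -0.73 ± 0.10, adjusted p = 0.000669, in HB9 cells, where quantile normalization ended the call (adjusted p = 0.16), and -0.35 ± 0.10, adjusted p = 0.12, in Opn4 cells. The difference of the crush effects, 0.38 ± 0.14, adjusted p = 0.273, missed the threshold. The other membrane SNARE, Stx1a (ENSMUSG00000007207, chr5:135023482-135051100, plus strand), was at 46.8, 68.5 and 62.5 RPKM in Opn4 cells after crush and 65.9, 53.0 and 64.3 RPKM after sham, against 15.0, 16.2 and 3.61 RPKM in HB9 cells after crush and 22.7, 13.0 and 11.1 RPKM after sham. Every Opn4 library was above every HB9 library. The difference was 1.96 ± 0.45, adjusted p = 0.0121, after sham and 2.46 ± 0.45, adjusted p = 0.00334, after crush, and the rod covariate ended both calls (adjusted p = 0.215 and adjusted p = 0.0718), as did leaving out HB9 sham 2 or HB9 sham 3 for the call after sham (adjusted p = 0.0501 and adjusted p = 0.0552).

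Of the complexins, which bind the assembled SNAREs and set when they fuse, Cplx1 and Cplx2 were lower in Opn4 cells and Cplx3 had no call. Cplx1 was at 131, 214 and 173 RPKM in Opn4 cells after crush and 201, 178 and 134 RPKM after sham, against 1119, 1028 and 999.6 RPKM in HB9 cells after crush and 1543, 1327 and 1327 RPKM after sham. The highest Opn4 library was at 214 RPKM and the lowest HB9 library at 999.6 RPKM, and the class difference was -3.04 ± 0.19, adjusted p = 1.24e-06, after sham and -2.62 ± 0.19, adjusted p = 4.66e-06, after crush. In HB9 cells crush libraries lay under sham libraries at -0.41 ± 0.19, adjusted p = 0.256. Cplx2 was at 4.53, 2.55 and 5.97 RPKM in Opn4 cells after crush and 7.53, 3.78 and 3.81 RPKM after sham, against 12.3, 15.1 and 23.5 RPKM in HB9 cells after crush and 43.9, 51.7 and 44.6 RPKM after sham. It was lower in Opn4 cells after sham (-3.03 ± 0.38, adjusted p = 0.000242) and after crush (-1.75 ± 0.38, adjusted p = 0.0103). The call after crush was lost with the rod covariate (adjusted p = 0.0787), in a fit on the 6 crush libraries alone (adjusted p = 0.0545) and without HB9 crush 3 (adjusted p = 0.0537). Cplx2 fell after crush in HB9 cells (-1.45 ± 0.38, adjusted p = 0.0409), a call lost without any 1 of HB9 sham 1, HB9 sham 2, HB9 sham 3, HB9 crush 1, HB9 crush 2 and HB9 crush 3 (adjusted p = 0.0502 to 0.167). It was also lost with the rod covariate (adjusted p = 0.0636), with no filter on low values (adjusted p = 0.0543) and on adding 0.1 in place of 1 before taking logs (adjusted p = 0.065). In Opn4 cells its libraries overlapped (-0.17 ± 0.38, adjusted p = 0.885). The SNAP adaptors that help the ATPase Nsf take SNAREs apart were slightly lower in Opn4 cells. Napb was at 229.9, 316 and 271 RPKM in Opn4 cells after crush and 263, 275 and 331 RPKM after sham, against 519, 459 and 535 RPKM in HB9 cells after crush and 434, 507 and 559 RPKM after sham. Between classes it differed by -0.79 ± 0.16, adjusted p = 0.00572, after sham and -0.90 ± 0.16, adjusted p = 0.00266, after crush, and both calls were ended by the rod covariate (adjusted p = 0.191 and adjusted p = 0.0739). Napa was at 252, 268 and 248 RPKM in Opn4 cells after crush and 263, 198 and 226 RPKM after sham, against 369, 398 and 291 RPKM in HB9 cells after crush and 339.7, 375 and 332 RPKM after sham. It was called after sham (-0.61 ± 0.15, adjusted p = 0.0199). The rod covariate ended this call (adjusted p = 0.094), and it was lost without any 1 of Opn4 sham 2, Opn4 sham 3, HB9 sham 1 and HB9 sham 2 (adjusted p = 0.0509 to 0.0869).

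**Figure D2:**
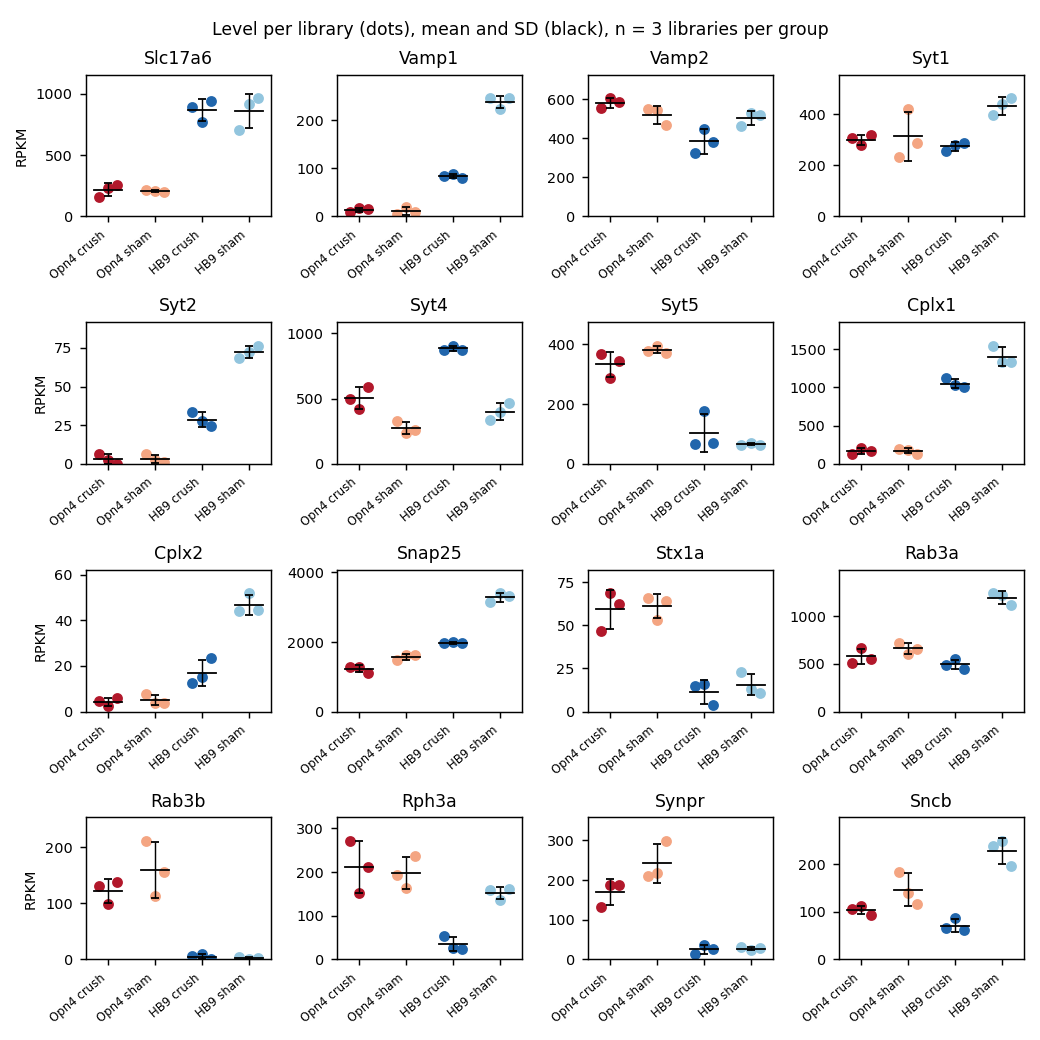
RPKM of 16 release genes in each library (dots) with the group mean and SD (black; n = 3 libraries per group), on linear axes that start at 0. Vamp1, Syt2, Cplx1, Cplx2 and Slc17a6 lie low in both Opn4 groups, Rab3b, Synpr, Syt5 and Stx1a lie high there, and Rph3a, Rab3a and Sncb are low in the HB9 crush libraries, against the HB9 sham libraries.

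The RAB3 group held the 2 members whose crush effect differed between classes. Rab3a, the RAB protein of synaptic vesicles, was at 513, 669 and 553 RPKM in Opn4 cells after crush and 724, 608 and 656 RPKM after sham, against 487, 548 and 448 RPKM in HB9 cells after crush and 1238, 1226 and 1113 RPKM after sham. The 3 HB9 sham libraries stood above all others. Opn4 crush libraries overlapped both Opn4 sham and HB9 crush libraries, while all HB9 crush libraries lay under all Opn4 sham libraries. Rab3a fell after crush in HB9 cells (-1.27 ± 0.13, adjusted p = 0.000113), while the change in Opn4 cells was -0.20 ± 0.13, adjusted p = 0.536. Its effector rabphilin (Rph3a), which binds RAB3 and calcium, was at 271, 152 and 213 RPKM in Opn4 cells after crush and 192, 164 and 237 RPKM after sham, against 52.5, 26.0 and 23.8 RPKM in HB9 cells after crush and 159, 135 and 162 RPKM after sham. The 3 HB9 crush libraries lay under all 9 others. Rph3a fell after crush in HB9 cells (-2.21 ± 0.29, adjusted p = 0.000521), the largest fall of the set, and changed by 0.08 ± 0.29, adjusted p = 0.942, in Opn4 cells.

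The difference of the crush effects, Opn4 minus HB9, was 1.07 ± 0.19, adjusted p = 0.0216, for Rab3a and 2.28 ± 0.41, adjusted p = 0.0229, for Rph3a. These were the 2 members called higher in this contrast, with 0 called lower (limma, 14 of 47 at an unadjusted p under 0.05), where 0.29% and 0.525% of all genes were called (0.816% in either direction), and the median was 0.39 for the set and -0.13 for all genes. The Rab3a call was lost without any 1 of Opn4 sham 3, HB9 sham 1, HB9 sham 2, HB9 crush 1 and HB9 crush 3 (adjusted p = 0.0521 to 0.0779). The Rph3a call was lost without any 1 of Opn4 sham 2, HB9 sham 1, HB9 sham 2, HB9 sham 3, HB9 crush 2 and HB9 crush 3 (adjusted p = 0.052 to 0.0697), on leaving out both libraries that stood apart (adjusted p = 0.0694) with no filter on low values (adjusted p = 0.063) and with weights per library (adjusted p = 0.0563). The count of 2 came to 0 without HB9 sham 1, without HB9 sham 2 or without HB9 crush 3, to 1 without the 2 libraries that stood apart and without Opn4 sham 3, HB9 sham 3, HB9 crush 1 or HB9 crush 2, and to 3 without Opn4 sham 1. Between classes, Rab3a was lower in Opn4 cells after sham (-0.85 ± 0.13, adjusted p = 0.0012) and not called after crush (0.22 ± 0.13, adjusted p = 0.321), and Rph3a was not called after sham (0.37 ± 0.29, adjusted p = 0.487) and higher in Opn4 cells after crush (2.65 ± 0.29, adjusted p = 9.4e-05).

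Rab3b (ENSMUSG00000003411, chr4:108879063-108943324, plus strand), a RAB3 isoform known from pituitary and some brain neurons, had the largest positive class difference of the 47. It was at 131, 98.5 and 139 RPKM in Opn4 cells after crush and 211, 112 and 155 RPKM after sham, against 5.63, 8.64 and 0.0322 RPKM in HB9 cells after crush and 4.27, 0.323 and 1.43 RPKM after sham. The lowest Opn4 library (98.5 RPKM) was far above the highest HB9 library (8.64 RPKM). The class difference was 5.92 ± 0.70, adjusted p = 0.000144, after sham and 4.92 ± 0.70, adjusted p = 0.000663, after crush, and the calls held under each of the 23 alternatives. Rab3c lay between 12.6 and 42.7 RPKM with no call.

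**Figure D3:**
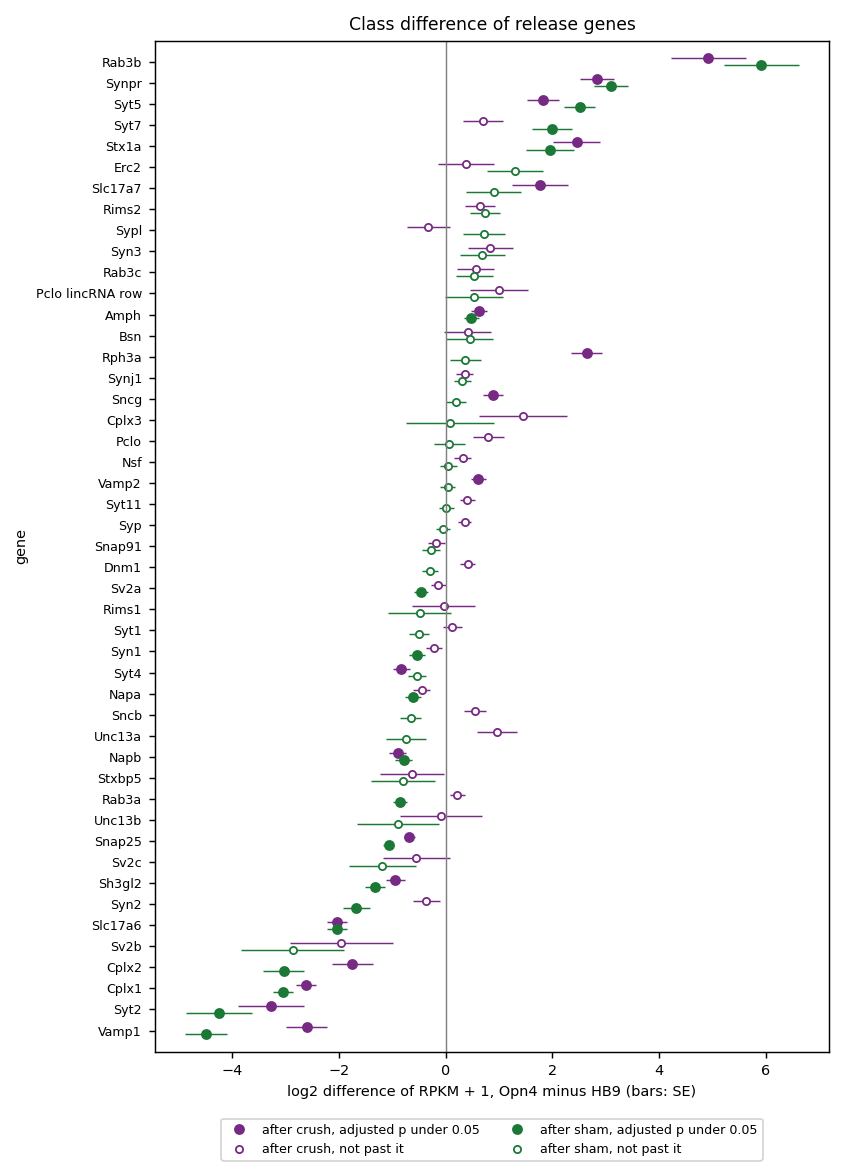
Log2 difference between classes (Opn4 minus HB9) of the 47 tested rows after crush (purple) and after sham (green), with bars of 1 SE and filled points at an adjusted p under 0.05. Rab3b, Synpr, Syt5 and Stx1a stand to the right in both, and Vamp1, Syt2, Cplx1, Cplx2 and Slc17a6 to the left in both, while Rph3a and Rab3a sit farther right after crush than after sham.

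The active zone genes were low in all groups and none was called. Rims1, Rims2, Unc13a, Unc13b, Bsn, Pclo and Erc2, which build the release site and prime vesicles, ranged from 0.223 to 68.2 RPKM over the 12 libraries. Bsn, a very large scaffold gene, never passed 4.36 RPKM. Yet in HB9 cells 4 of the 8 rows had all crush libraries under all sham libraries, and 0 the reverse (50% and 0%; all genes 12.6% and 19%). Besides Unc13a these were Rims1 (12.5 to 13.2 RPKM after crush, 22.0 to 34.5 RPKM after sham), Rims2 (16.8 to 19.6 and 27.7 to 35.0 RPKM) and the protein-coding Pclo row (8.59 to 10.7 and 13.0 to 19.6 RPKM). In Opn4 cells crush and sham overlapped for Rims1, Rims2 and Pclo. The priming factor Unc13a was at 29.8, 16.1 and 16.5 RPKM in Opn4 cells after crush and 7.55, 15.3 and 11.8 RPKM after sham, against 11.4, 7.72 and 10.4 RPKM in HB9 cells after crush and 13.4, 25.9 and 20.2 RPKM after sham. Its crush libraries were all above sham in Opn4 cells (0.79 ± 0.38, adjusted p = 0.362) and all under sham in HB9 cells (-0.91 ± 0.38, adjusted p = 0.199), and neither change passed. Without strand, reads of Unc13a and of the overlapping gene Colgalt1 (495 shared exon bases) cannot be told apart. The same limit applies to Pclo, which shares 429 exon bases with antisense Gm26918 and 496 with antisense Gm26954. Gm26918 was at 30.8 to 36.1 RPKM in HB9 cells after crush and 50.7 to 72.3 RPKM after sham.

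In endocytosis, endophilin A1 (Sh3gl2), which bends and helps uncoat the recovered membrane, was the clearest member. It was at 114, 139 and 96.8 RPKM in Opn4 cells after crush and 165, 146 and 107 RPKM after sham, against 224, 203 and 243 RPKM in HB9 cells after crush and 350.3, 339 and 350.2 RPKM after sham. Opn4 cells were lower after sham (-1.33 ± 0.18, adjusted p = 0.00046) and after crush (-0.94 ± 0.18, adjusted p = 0.00527), with no overlap. Amphiphysin (Amph), a partner of dynamin, was at 146, 186 and 160.3 RPKM in Opn4 cells after crush and 207, 199 and 203 RPKM after sham, against 99.5, 104 and 113 RPKM in HB9 cells after crush and 133, 153 and 150.1 RPKM after sham. It was higher in Opn4 cells after sham (0.48 ± 0.14, adjusted p = 0.0485) and after crush (0.63 ± 0.14, adjusted p = 0.0132). The call after sham held in 8 of 23 alternatives. It ended with the rod covariate (adjusted p = 0.112), among others, and without any 1 of Opn4 sham 1, Opn4 sham 2, Opn4 sham 3, Opn4 crush 3, HB9 sham 1, HB9 sham 2, HB9 sham 3, HB9 crush 1, HB9 crush 2 and HB9 crush 3 (adjusted p = 0.0575 to 0.157). The call after crush was lost without HB9 crush 1 (adjusted p = 0.0586). Dynamin 1 (Dnm1), which cuts the vesicle from the membrane, was at 545, 448 and 514 RPKM in Opn4 cells after crush and 431, 330.0 and 346 RPKM after sham, against 360.1, 353 and 417 RPKM in HB9 cells after crush and 426, 506 and 424 RPKM after sham. As for Unc13a, its libraries moved up without overlap in Opn4 cells (0.45 ± 0.15, adjusted p = 0.182) and down in HB9 cells (-0.26 ± 0.15, adjusted p = 0.386), and neither change passed. Snap91 (AP180) and Synj1 (synaptojanin) had no call and lay between 204 and 340 RPKM and between 82.6 and 161 RPKM.

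Both synucleins, small presynaptic proteins that bind vesicle membranes, fell after crush in HB9 cells. Beta-synuclein (Sncb, ENSMUSG00000034891, chr13:54758860-54766595, minus strand) was at 106, 111 and 93.4 RPKM in Opn4 cells after crush and 184, 139.6 and 116 RPKM after sham, against 65.3, 86.5 and 60.8 RPKM in HB9 cells after crush and 238, 249 and 197 RPKM after sham. HB9 crush libraries were the lowest of the 4 groups and HB9 sham libraries the highest. The change was -1.68 ± 0.20, adjusted p = 0.000301, in HB9 cells and -0.47 ± 0.20, adjusted p = 0.314, in Opn4 cells, where crush also lay under sham. The difference of these changes was 1.21 ± 0.29, adjusted p = 0.0739. Gamma-synuclein (Sncg, ENSMUSG00000023064, chr14:34370274-34374789, minus strand), known as a ganglion cell marker in the retina, was at 2108, 2918 and 2458 RPKM in Opn4 cells after crush and 3070.2, 2303 and 3563 RPKM after sham, against 1486, 1513 and 1049 RPKM in HB9 cells after crush and 2524, 2820.4 and 2366 RPKM after sham. It fell in HB9 cells (-0.94 ± 0.19, adjusted p = 0.0082; adjusted p = 0.0911 with quantile normalization), and its change in Opn4 cells was -0.25 ± 0.19, adjusted p = 0.593. The difference of the changes was 0.70 ± 0.26, adjusted p = 0.277. After sham the classes overlapped (0.19 ± 0.19, adjusted p = 0.58), and after crush Opn4 cells were higher (0.89 ± 0.19, adjusted p = 0.00762).

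**Figure D4:**
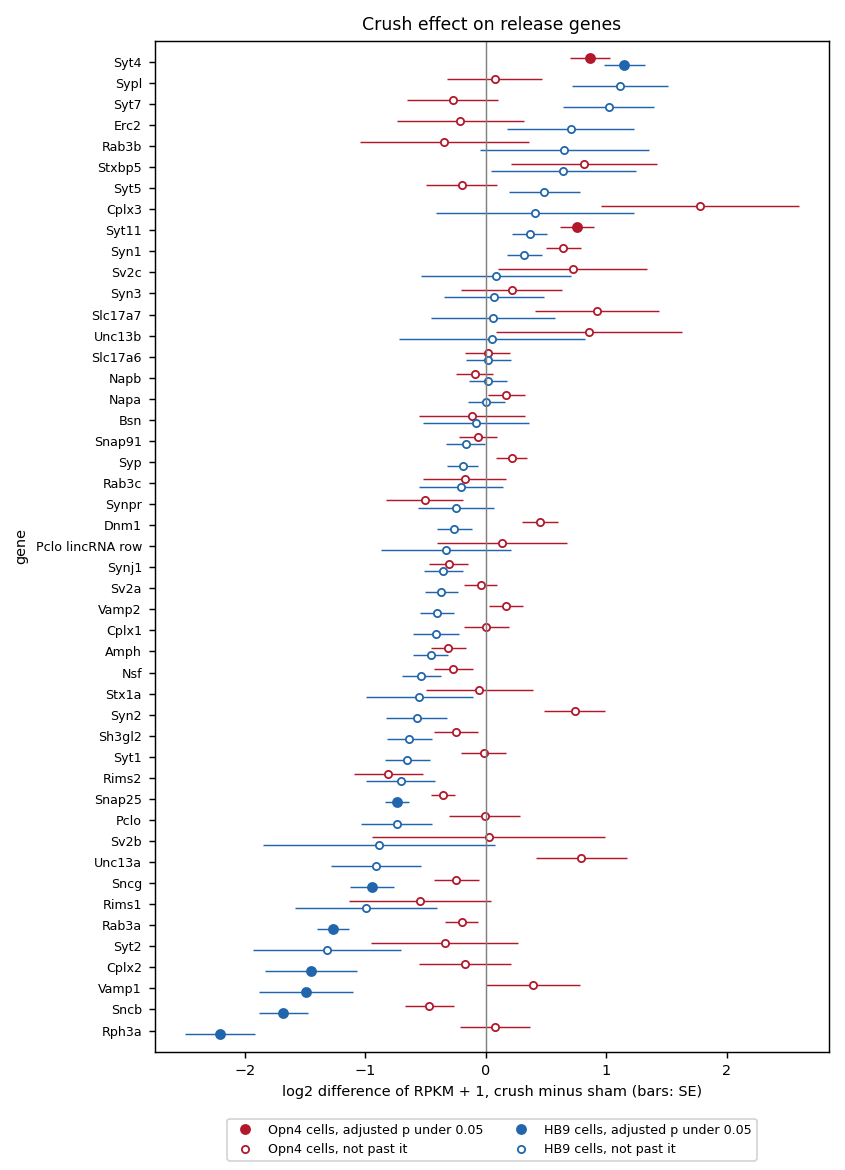
Log2 change after crush (crush minus sham) of the 47 tested rows in Opn4 cells (red) and HB9 cells (blue), with bars of 1 SE and filled points at an adjusted p under 0.05. The 7 filled blue points left of 0 are the members that fell in HB9 cells, the red points of the same genes lie nearer 0, and Syt4 at the top is filled in both classes.

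Within paralog families the make-up of the summed RPKM differed by class and, for a few members, with crush. Of the 2 synaptobrevins, Vamp1 held 1.49% to 2.76% in Opn4 cells after crush and 0.859% to 3.58% after sham, against 16.4% to 20.5% in HB9 cells after crush and 29.7% to 34.6% after sham. Of the 3 RAB3 genes listed, Rab3b held 12.5% to 19.5% and 15.0% to 21.6% in Opn4 cells after crush and sham, against 0.00698% to 1.50% and 0.0260% to 0.338% in HB9 cells. Synpr held 20.0% to 25.5% and 29.3% to 39.8% of the synaptophysin family in Opn4 cells after crush and sham, against 2.78% to 6.88% and 4.50% to 5.99% in HB9 cells. For these 3 genes the class ranges did not overlap. Of the 6 synaptotagmins, Syt4 held 25.4% to 30.4% in Opn4 cells after crush and 15.8% to 22.7% after sham, against 46.5% to 50.0% in HB9 cells after crush and 26.9% to 31.4% after sham. Syt1 held 14.4% to 16.6% in HB9 cells after crush and 31.1% to 31.6% after sham, so that Syt4 had the largest share of the 6 in each of the 3 HB9 crush libraries, and Syt1 in 2 of the 3 HB9 sham libraries and Syt4 in the other. Syt5 held 17.4% to 18.8% and 26.3% to 29.1% in Opn4 cells after crush and sham, against 3.66% to 9.10% and 4.28% to 5.07% in HB9 cells. Of the 3 complexins listed, Cplx3, known from photoreceptors, bipolar and amacrine cells, held 17.9% to 29.7% in Opn4 cells after crush and 4.74% to 12.9% after sham, against 1.04% to 5.46% and 0.234% to 2.83% in HB9 cells. Cplx3 itself was not called in any comparison, and its libraries ranged from 3.22 to 87.4 RPKM. These shares are descriptions, with no test.

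**Figure D5:**
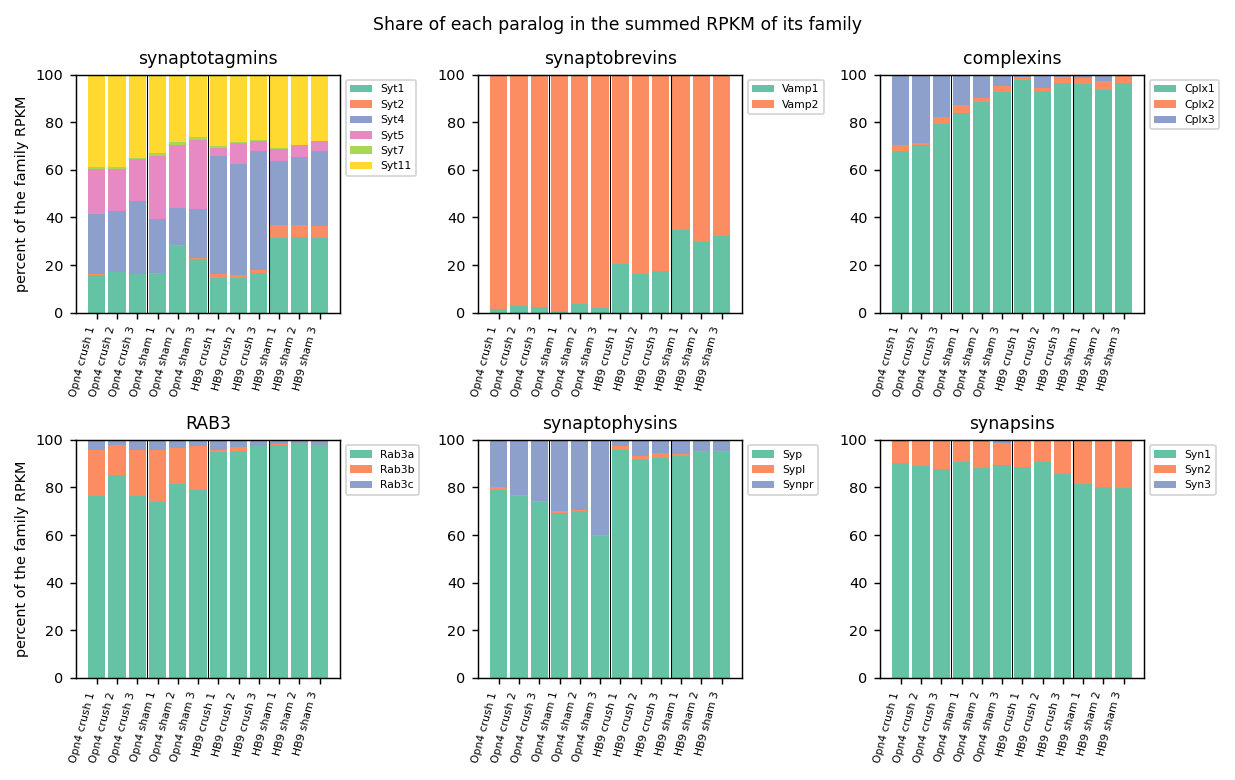
Share of each paralog in the summed RPKM of its family, in percent, for 6 families and the 12 libraries in the order Opn4 crush, Opn4 sham, HB9 crush and HB9 sham. Vamp1 is visible in the HB9 libraries and smaller after crush, Rab3b and Synpr fill a part of the Opn4 bars, and Syt4 takes up to 50.0% of the synaptotagmins in HB9 crush libraries.

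Of the 47 rows, 26 were called in at least 1 comparison and 21 in none. The 21 were not only weak genes: Syp, Dnm1, Syt1, Nsf and Snap91 had medians over the 12 libraries of 265 to 496 RPKM, while Bsn, Unc13b, Syn3, Sypl and the non-coding Pclo row had medians under 10. The lowest adjusted p among them was 0.0563, for Syt1 after crush in HB9 cells. Sv2b, a vesicle glycoprotein like Sv2a, was at 25.7, 31.5 and 0.207 RPKM in Opn4 cells after crush and 14.2, 14.4 and 3.26 RPKM after sham, against 49.2, 44.7 and 25.7 RPKM in HB9 cells after crush and 68.5, 83.5 and 65.0 RPKM after sham. After sham its Opn4 libraries all lay under its HB9 libraries, and the class difference of -2.87 ± 0.97, adjusted p = 0.0768, missed the threshold, while after crush the classes overlapped. The 12 libraries of Sv2c, the other such glycoprotein, ranged from 2.38 to 36.4 RPKM. Those of Nsf ranged from 205 to 362 RPKM. In HB9 cells Nsf was lower in all crush libraries (205 to 219 RPKM) than in all sham libraries (303 to 313 RPKM), while in Opn4 cells they overlapped. Libraries of Stxbp5, a brake on SNARE assembly, ranged from 1.70 to 25.4 RPKM. Those of Syn3, the weakest synapsin, ranged from 1.39 to 7.37 RPKM and those of the synaptophysin relative Sypl from 1.86 to 9.19 RPKM. Timp3 lies within Syn3 on the other strand and shares 1733 exon bases with it. These p-values do not show that the 21 genes were alike between groups.

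The wider machinery, a list of 155 further genes of release and vesicle recycling, was read beside the set, and 136 of them were tested. Of these, the genes named are among the 3 highest or 3 lowest log2 differences past the threshold in a comparison. After crush in HB9 cells 6 rose and 4 fell (4.41% and 2.94%; all genes 3.84% and 2.57%), with a median log2 change of 0.12. In Opn4 cells 1 rose and 1 fell (0.735% each; all genes 0.69% and 0.421%), and the difference of the crush effects called 1 higher and 2 lower (0.735% and 1.47%; all genes 0.29% and 0.525%). Between classes 15 were higher and 13 lower in Opn4 cells after sham (11% and 9.56%; all genes 5.82% and 5.93%). After crush 17 were higher and 5 lower (12.5% and 3.68%; all genes 5.12% and 7.6%). Baiap3, a MUNC13 relative, was at 97.0, 131 and 55.5 RPKM in Opn4 cells after crush and 131, 118 and 151 RPKM after sham, against 1.40, 16.0 and 16.8 RPKM in HB9 cells after crush and 1.07, 1.18 and 0.797 RPKM after sham. Its class difference came to 6.06 ± 0.62, adjusted p = 4.05e-05, after sham and 3.32 ± 0.62, adjusted p = 0.00381, after crush. Baiap3 is also among the markers of photosensitive ganglion cells summed above. Endophilin A3 (Sh3gl3) was at 23.5, 27.4 and 37.1 RPKM in Opn4 cells after crush and 75.7, 57.9 and 62.7 RPKM after sham, against 1.94, 4.20 and 2.32 RPKM in HB9 cells after crush and 0.0206, 0.968 and 0 RPKM after sham. Opn4 cells were higher by 5.71 ± 0.40, adjusted p = 3e-06, after sham, opposite to Sh3gl2. Sh3gl3 rose after crush in HB9 cells (1.55 ± 0.40, adjusted p = 0.034), a call that held in 16 of 23 alternatives. Its difference of crush effects was -2.70 ± 0.56, adjusted p = 0.0459, and this call held in 4 of 22 alternatives. Prrt2, which restrains SNARE assembly, was at 157, 126 and 111 RPKM in Opn4 cells after crush and 142, 140.1 and 119 RPKM after sham, against 21.7, 30.6 and 32.0 RPKM in HB9 cells after crush and 101, 91.9 and 117 RPKM after sham. It fell in HB9 cells (-1.86 ± 0.20, adjusted p = 0.000147), and its difference of crush effects (1.82 ± 0.29, adjusted p = 0.0127) passed under each of the 22 alternatives. Doc2a, a calcium sensor of spontaneous release, was at 11.6, 16.5 and 27.3 RPKM in Opn4 cells after crush and 71.0, 69.4 and 57.9 RPKM after sham, against 18.2, 16.1 and 20.4 RPKM in HB9 cells after crush and 6.13, 11.4 and 12.2 RPKM after sham. It fell in Opn4 cells (-1.86 ± 0.34, adjusted p = 0.0197), with a difference of crush effects of -2.72 ± 0.48, adjusted p = 0.0207. Both Doc2a calls ended on leaving out the 2 libraries that stood apart (adjusted p = 0.0945 and adjusted p = 0.0571), the second also without any 1 of HB9 crush 1 and HB9 crush 3 (adjusted p = 0.0574 to 0.06). The first was also lost in a fit on the Opn4 libraries alone (adjusted p = 0.169), with weights per library (adjusted p = 0.083) and without any 1 of Opn4 sham 1 and Opn4 sham 2 (adjusted p = 0.0544 to 0.0584).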

How the data were processed

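The deposited table held RPKM values per Ensembl gene for 12 libraries, made by the authors with TopHat2 2.0.11, Bowtie and edgeR 3.14.0 on mm10, per the submitters' processing notes. The counting tool, its use of strand and filters were not given in the sources used here. Scaling totals came from short non-coding RNA genes alone, 642 to 883 with reads in a library. Their RPKM times length gave whole multiples of 1 read (tolerance 0.01) for 100% of values. For each gene the length was then taken as the smallest that made its reads whole in every library. Whole reads of the other genes were thus set by the method and not observed. The recovered reads summed to 226.6% to 244.2% of the scaling totals. The files do not show whether a read could count for several genes or the totals were of other reads. Where RPKM rests on few reads, counting error is large.

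Values were taken as log2(RPKM + 1), so fold changes of low genes are understated, and genes that reached 1 RPKM in 3 or more of the 12 libraries (18269 of 38887) were fitted with limma 3.58.1 in R 4.3.3: 4 group means over all 12 libraries, eBayes with trend, 5 two-sided contrasts, Benjamini-Hochberg adjustment, threshold 0.05. The script was tested on simulated data. Groups came from sample titles. Alternatives were a pseudocount of 0.1, no filter, a filter of 5 RPKM, median-of-ratios scaling, quantile normalization, the replicate number as a block, the compared groups alone, library weights, a rod covariate, voom on recovered reads, and leaving out libraries. Every library value is given for members called in any comparison, for Syt1 and Syp, and for Dnm1, Unc13a and Sv2b, chosen after their values were seen; other members are given by range. Of the wider list, genes among the 3 highest or 3 lowest log2 differences past the threshold in a comparison could be named. The members, the lists and the alternatives were chosen with earlier results of these data known. Promoter windows came from RefSeq (GRCm38.p6), matched by gene symbol.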

Additional observations from a re-analysis of the deposited data

Results flagged for a closer look

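Rab3a and Rph3a were set aside because the test of the difference of the crush effects, Opn4 minus HB9, passed. The log2 difference was 1.07 (limma, adjusted p = 0.0216) for Rab3a and 2.28 (adjusted p = 0.0229) for Rph3a. Both genes were lower after crush in 3 of 3 HB9 libraries and overlapped in Opn4 cells.

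For Dnm1, Unc13a and Vamp2 the 3 crush libraries all lay above the 3 sham libraries in Opn4 cells and all lay under them in HB9 cells. The log2 difference of the crush effects was 0.71 for Dnm1 (adjusted p = 0.157), 1.71 for Unc13a (adjusted p = 0.183) and 0.57 for Vamp2 (adjusted p = 0.231), so that the test missed the threshold for each.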

How the results depend on the processing

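Of 49 calls on members, 27 passed under each alternative that could be fitted. In HB9 cells after crush these were Rab3a, Rph3a, Sncb and Syt4. In Opn4 cells after crush and for the difference of the crush effects, none of the calls passed throughout. The number that rose in Opn4 cells was 1 with no filter on low values and 0 in the fit on the compared groups alone, and the number that fell was 1 with voom. In HB9 cells the number that rose was 4 with library weights and 2 with voom, and the number that fell was 12 with median-of-ratios scaling, 13 in the fit on the compared groups alone, 17 with library weights and 12 with voom. The difference of the crush effects gave 1 higher with no filter and 1 without the 2 libraries that stood apart. After sham 3 were higher in Opn4 cells with the rod covariate. The cause was not tested.

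Leaving out 1 library at a time, 0 to 2 rose and 0 to 0 fell in Opn4 cells, 1 to 1 rose and 5 to 9 fell in HB9 cells, 0 to 3 were higher and 0 to 0 lower in the difference of the crush effects, 4 to 7 were higher and 10 to 14 lower in Opn4 cells after sham, and 6 to 10 were higher and 9 to 9 lower after crush. Of 83 gene values, 7 changed sign somewhere, with none of these called. For Cplx2, the crush effect in Opn4 cells was 0.0544 without the 2 libraries that stood apart and -0.39 to 0.105 with 1 library left out. For Rph3a, the crush effect in Opn4 cells was -0.134 without the 2 libraries that stood apart and -0.121 to 0.295 with 1 library left out. For Slc17a6, the crush effect in Opn4 cells was -0.132 to 0.231 with 1 library left out. For Sncg, the crush effect in Opn4 cells was 0.0479 with quantile normalization. For Vamp1, the crush effect in Opn4 cells was -0.0491 to 0.891 with 1 library left out. For Slc17a6, the crush effect in HB9 cells was -0.0891 with median-of-ratios scaling, -0.00378 with library weights and -0.118 to 0.109 with 1 library left out. For Vamp2, the class difference after sham was -0.00735 with median-of-ratios scaling, -0.0174 with library weights, -0.000903 without the 2 libraries that stood apart and -0.0189 to 0.116 with 1 library left out.

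Quantile normalization moved the median log2 difference of all genes by -0.13 for crush in HB9 cells, by 0.11 between classes after crush and by 0.13 for the difference of the crush effects, where median-of-ratios scaling moved it by 0.10. Libraries with the same replicate number showed no common deviation (r of -0.0217 to 0.081 over 18 pairs, and -0.0795 to 0.0705 over the 36 other pairs). A pairing weaker than the spread between libraries would not be seen this way, so whether the number is a pairing is not known. With it as a replicate block, 2 rose and 0 fell in Opn4 cells, 1 rose and 6 fell in HB9 cells, 2 were higher in the difference of the crush effects, and 5 were higher and 14 lower after sham and 9 and 9 after crush. The median SD of log2 values of the members was 0.26 after sham and 0.29 after crush in Opn4 cells, against 0.17 and 0.21 in HB9 cells. Over all genes tested it was 0.47 and 0.51 in Opn4 cells, against 0.33 and 0.34 in HB9 cells, with 3 libraries of 30 cells per group.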
